A study of Caenorhabditis elegans with 8 samples.

Results

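This comparison sets the shortest single-end library of endo-cleaved oocyte DNA, 40 to 90 nt long, against the library of nucleosome-length endo-cleaved DNA, 140 to 240 nt long. These are 2 of the 8 libraries of the series, chosen by their size labels and not by any measured value. Both were made from purified, unfertilized oocytes of Caenorhabditis elegans fer-1(b232), a temperature-sensitive strain held at its restrictive temperature so that its sperm do not fertilize. DNA was extracted by direct lysis of frozen, ground cells, and in both libraries the cuts were made by a nuclease of the oocytes themselves. The cells carry endoreduplicated DNA, and each library is a bulk sample of many cells. The libraries set beside them come from the same strain: an endo-cleaved single-end library of 90 to 140 nt, endo-cleaved paired-end libraries of 50 to 130 nt and of 130 to 430 nt, and 1 library of 150 bp core DNA released with added micrococcal nuclease (MNase). Each condition has 1 library, so the values below have no error between oocyte preparations and no test between conditions.

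A nucleosome core is DNA wrapped around a histone octamer, and the linker DNA between cores is the part most open to a nuclease. A cut in each of the flanking linkers releases a nucleosome-length fragment, whereas a shorter fragment needs at least 1 cut within the length that a core would cover, or DNA with no core at all. On the octamer surface the minor groove turns outward once per helical turn, so cuts within a core recur at helical intervals. The ratio of short to nucleosome-length ends along the genome, and the distances between the ends of both libraries, describe where the DNA was cut to short lengths. Base sequence and genes at these places were not analysed here.

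The 40 to 90 nt library held 29938690 tags at 23077815 distinct positions and strands, and the 140 to 240 nt library 32660817 tags at 13040032. Each position was counted once, since the tags per position differed (1.297 for short DNA, 2.505 for nucleosome-length DNA). Short ends occupied 11.5% of the positions on both strands of the 6 nuclear chromosomes, and nucleosome-length ends 6.50%. Counts in a window were divided by the library total, and the log2 ratio of the 40 to 90 over the 140 to 240 nt library was taken. A ratio of 0 therefore means that a window held the same share of each library, not the same number of cuts. Of 100258 windows of 1 kb, 96611 passed a filter on low counts, with a median of 241 short ends and 139 nucleosome-length ends. Of 10028 windows of 10 kb, 9930 passed, with medians of 2342.5 and 1368 ends. Intervals given below are at 95% and cover counting error only, and PCR copies and neighboring windows are not independent.

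Short and nucleosome-length ends were distributed differently along the genome by more than counting error. In windows of 10 kb the log2 ratio had a standard deviation (SD) of 0.23, against 0.05 from counting error. In windows of 1 kb the SD was 0.32, against 0.16. The range was wide at the extremes and narrow over most of the genome. The 10-kb ratio ran from -0.77 to 0.90, its 5th percentile was -0.35 and its 95th percentile 0.41. The distribution leaned to the high side, with a median of -0.05. With no replicate library, the ratios computed from the plus strand alone and from the minus strand alone served as a check on noise within the libraries. Over the 9930 windows of 10 kb they had a Spearman's rho of 0.885, and over the 1-kb windows of 0.556. Both strands belong to the same libraries, so errors that they share do not enter these values.

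**Figure D1:**
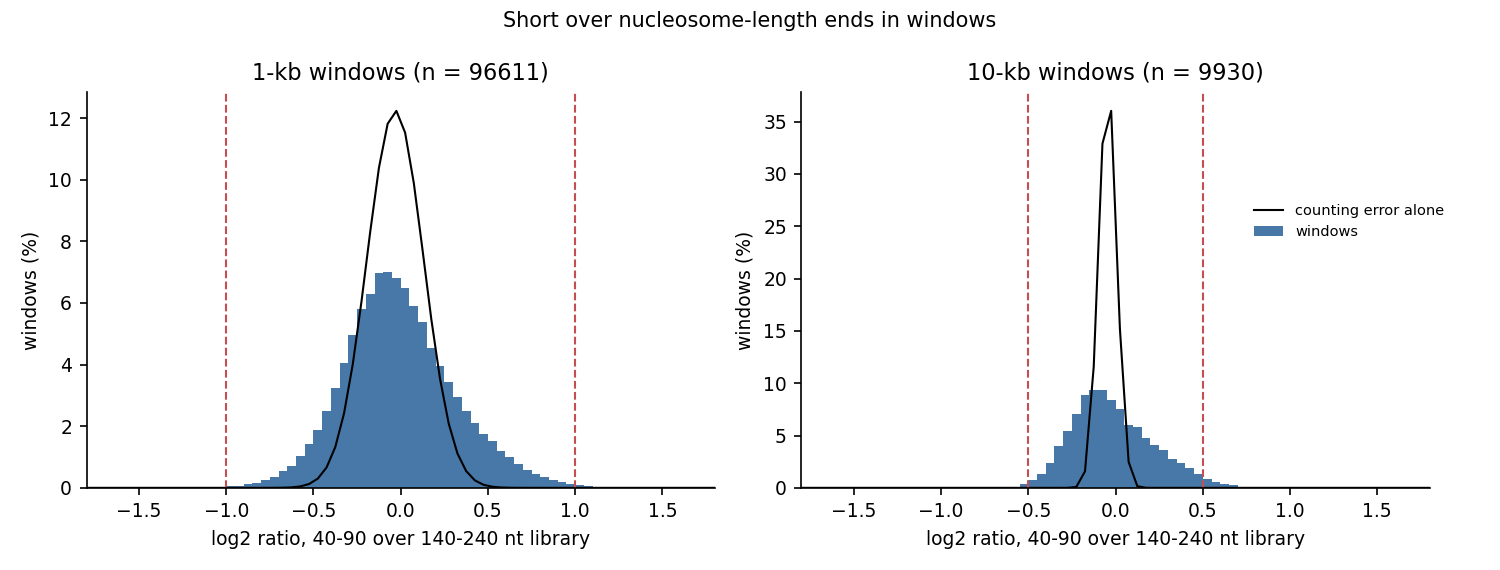
Log2 ratio of the 40 to 90 over the 140 to 240 nt library in windows of 1 kb (left) and 10 kb (right). Bars give the percent of windows per step of 0.05, the black curve the spread that counting error alone would give around the median, and dashed lines the thresholds of 1 and 0.5. The bars are wider than the curve in both panels, with an SD of 0.32 against 0.16 at 1 kb and of 0.23 against 0.05 at 10 kb.

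A window was called short-rich at a log2 ratio of 1 or more in 1 kb, or 0.5 or more in 10 kb, and long-rich at the same size below 0. By this rule 208 of the 1-kb windows (0.215%, interval 0.187 to 0.247%) were short-rich and 107 (0.111%, 0.0908 to 0.134%) were long-rich, 0.326% in all. These counts depended on the processing, with 1089 short-rich and 180 long-rich windows of 1 kb when every tag was counted, and 316 short-rich and 336 long-rich ones without the low-count filter. Of the 10-kb windows, 214 (2.16%, 1.88 to 2.46%) were short-rich and 62 (0.624%, 0.479 to 0.800%) were long-rich. Together they were 2.78% of the passing windows of 10 kb, and short-rich windows made up 77.5% of these 276. Scaled to the median window of each library in place of the totals, they made up 92.2% (342 short-rich, 29 long-rich). Correction for positions already occupied gave 283 short-rich and 97 long-rich windows of 10 kb. At the threshold the values were continuous, the lowest short-rich and the highest uncalled window of 10 kb both rounding to 0.50. Of the 214 short-rich windows 147 were at 0.5 or more on both strands taken alone, and of the 62 long-rich windows 28 were at -0.5 or less on both, which describes the same ends that called them.

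At 10 kb, short-rich windows held more short ends than the median window and nearly as many nucleosome-length ends. The median short-rich window of 10 kb held 3390 short ends, 1.45 times the median of all passing windows, and 1285.5 nucleosome-length ends, 0.940 times it. At 1 kb the short-rich windows differed in both, with short ends at 1.46 times the median (353 ends) and nucleosome-length ends at 0.673 times (93.5 ends). At 10 kb, MNase core ends were at 0.566 times their median, with 390 ends in the median short-rich window, against 689 in the median of all windows. All 214 short-rich windows of 10 kb held fewer MNase ends than the median window. At 1 kb MNase ends were at 0.368 times the median (25 ends), and all 208 short-rich windows were under it. Long-rich windows of 10 kb had the reverse order. Their short ends were at 0.720 times the median (1687.5 ends), their nucleosome-length ends at 1.02 times (1398.5 ends) and their MNase ends at 1.35 times (932 ends). Of the 62 long-rich windows, 53 were above the MNase median. At 1 kb the long-rich windows had short ends at 0.515 times the median (124 ends) and nucleosome-length ends at 1.11 times (154 ends). MNase ends were less different there, at 1.12 times the median (76 ends), with 60 of the 107 windows above it and 47 below. Across all windows of 10 kb the ratio had a Spearman's rho of -0.565 with the number of MNase ends (-0.564 to -0.486 on single chromosomes). The MNase library shares no reads with either library, and at 6852300 positions it is the shallowest of those used.

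Ends of both sizes varied along the genome. The SD of log2 counts was 0.38 for short ends and 0.31 for nucleosome-length ends over the 10-kb windows, and 0.45 and 0.42 over the 1-kb windows. The ratio had a rho of 0.667 with the short ends and of -0.097 with the nucleosome-length ends, and in windows of 1 kb of 0.558 with the short and of -0.380 with the nucleosome-length ends. Both counts form the ratio, so these values are not independent of it. The counts of the libraries themselves were related across the 10-kb windows, with a rho of 0.609 between short and nucleosome-length ends.

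**Figure D2:**
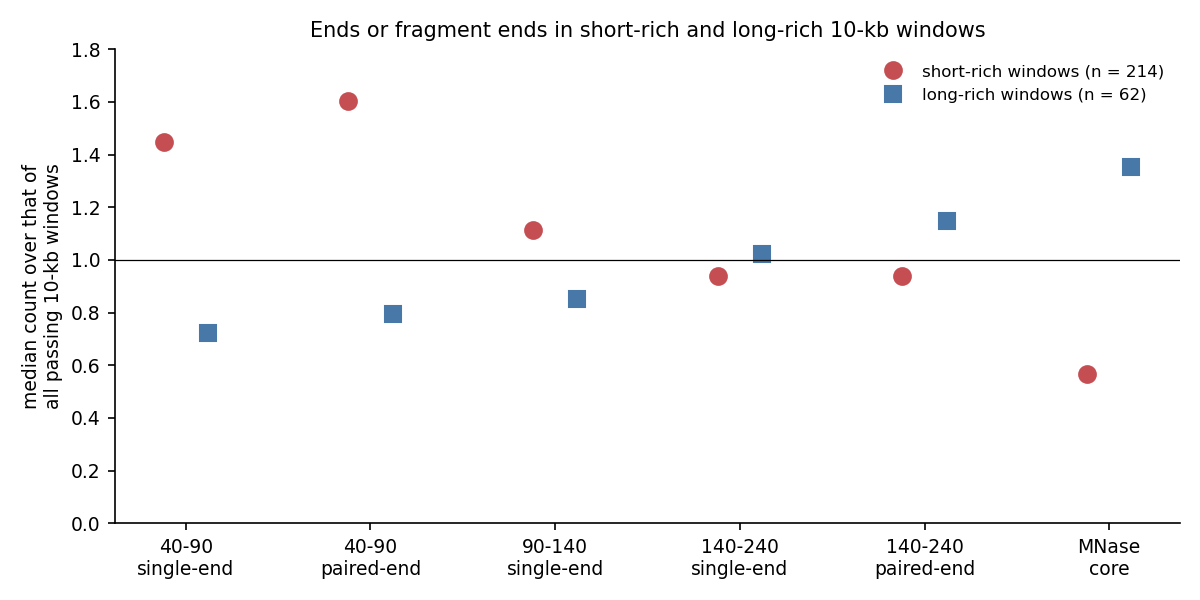
Median number of ends in short-rich (red circles, 214) and long-rich (blue squares, 62) windows of 10 kb, divided by the median of all 9930 passing windows, in each library; paired-end points count ends of fragments of 40 to 90 nt and of 140 to 240 nt. Short ends stand at 1.45 times the median in short-rich windows and at 0.720 times it in long-rich windows, nucleosome-length ends lie near 1 in both, and MNase ends have the opposite order, at 0.566 and 1.35 times. The called windows were chosen on the single-end ratio of the first and the fourth library.

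The paired-end libraries gave the same size contrast in DNA sequenced apart from the single-end libraries. Fragments of 40 to 90 nt were taken from the 50 to 130 nt library, whose label begins above the lower limit of 40 nt. Fragments of 140 to 240 nt were taken from the 130 to 430 nt library. Both ends of each distinct fragment were counted in the same windows. A position shared by more than 1 fragment was thus counted more than once, unlike in the single-end ratio. The paired-end ratio had a rho of 0.899 with the single-end ratio over 9930 windows of 10 kb, from 0.823 on X to 0.920 on I. Over 1-kb windows rho was 0.660. All 214 short-rich windows had a paired-end ratio above 0, as did 43.0% of all passing windows, and 200 of them were at 0.5 or more, as were 565 of all 9930. All 62 long-rich windows were below 0 in the paired-end ratio, as were 57.0% of all windows, and 43 of them were at -0.5 or less, as were 248 of all 9930. In windows of 1 kb, 207 of 208 short-rich windows were above 0, against 46.6% of all windows, and 103 of 107 long-rich windows were below 0, against 53.4% of all windows. Whether the single-end and paired-end libraries came from separate oocyte preparations is not given in the sources used here.

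The 90 to 140 nt library lies between both in size and forms no part of the ratio. The number of its ends had a rho of 0.273 with the ratio in windows of 10 kb and of 0.056 in windows of 1 kb. In short-rich windows these ends stood at 1.11 times their median at 10 kb and at 0.975 times at 1 kb, and in long-rich windows at 0.850 times at 10 kb and at 0.737 times at 1 kb. The log2 ratio of the 90 to 140 over the 140 to 240 nt library was above 0 in 207 of 214 short-rich windows and in 0 of 62 long-rich windows of 10 kb, against 4686 of all 9930. This ratio shares its denominator with the one that chose the windows, so these counts are a description.

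The highest and lowest windows show how far the contrast went. Coordinates are those of the lists, whose genome build is not named in the sources used here. The highest window of 10 kb lay on chromosome I from 7470001 to 7480000, near the middle of the chromosome. It held 3848 short ends and 1164 nucleosome-length ends, a log2 ratio of 0.90 with a counting error of 0.05, and 249 MNase ends. Its ratio was 0.85 on the plus strand, 0.95 on the minus strand and 1.12 in the paired-end fragments. The next were chromosome III from 4270001 to 4280000 (4005 short and 1268 nucleosome-length ends, 0.84) and chromosome I from 7540001 to 7550000 (3781 and 1207 ends, 0.82). Of the 10 highest windows, 4 were on I, 3 on II, 2 on III and 1 on V, with ratios from 0.73 to 0.90. Their MNase ends numbered from 198 to 393, and their paired-end ratios were between 0.79 and 1.14.

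The lowest window of 10 kb lay on chromosome V from 19270001 to 19280000, in the right arm. It held 1952 short ends and 1885 nucleosome-length ends, a log2 ratio of -0.77 with a counting error of 0.05, and 1754 MNase ends. Its paired-end ratio was -0.86. Chromosome V from 17130001 to 17140000 (1067 short and 1028 nucleosome-length ends, -0.77) and chromosome III from 1170001 to 1180000 (1607 and 1520 ends, -0.74) came next. Of the 10 lowest windows, 6 were on V, 3 on III and 1 on IV, and all 10 lay in the arms of their chromosome (its outer parts when divided into 3 equal lengths). The arms held 5437 of the 8168 autosomal windows, and 5 of the 10 highest windows. The ratios of the 10 lowest windows were between -0.77 and -0.64 and their MNase ends numbered from 881 to 1754. The ranges of MNase ends in the 10 highest and the 10 lowest windows did not overlap. Over all passing windows MNase ends ran from 66 to 1890, with a median of 689. The share of all windows in each range was not counted. These groups are the extremes of a ratio that had a rho of -0.565 with MNase ends over all windows.

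Windows of 1 kb reached larger ratios on fewer ends. The highest, on chromosome III from 1082001 to 1083000, held 265 short and 45 nucleosome-length ends, a log2 ratio of 1.73 with a counting error of 0.23. It was followed by chromosome V from 6213001 to 6214000 (400 and 85 ends, 1.41), which lies less than 10 kb before the tenth highest window of 10 kb, chromosome V from 6220001 to 6230000 (0.73). Chromosome III from 4752001 to 4753000 (94 and 20 ends, 1.41) came next, and its paired-end ratio was 0.25. The lowest windows of 1 kb were chromosome II from 816001 to 817000 (29 short and 54 nucleosome-length ends, -1.72), chromosome IV from 14209001 to 14210000 (34 and 61 ends, -1.67) and chromosome II from 6022001 to 6023000 (105 and 181 ends, -1.61). Their paired-end ratios were -1.25, -1.53 and -1.09.

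Along the chromosomes, the ratio was low on X and V and high on I and III. The median of the 10-kb windows was 0.06 on I (interval 0.05 to 0.08), -0.02 on II (-0.04 to -0.01), 0.06 on III (0.04 to 0.08), -0.04 on IV (-0.06 to -0.03), -0.12 on V (-0.13 to -0.11) and -0.09 on X (-0.10 to -0.09). Chromosome X, at -0.09, lay below all autosomal windows, at -0.03 (-0.04 to -0.02). It did not stand apart from each of them, since V was lower. The intervals of I and III overlapped. The paired-end medians kept X and V lowest, at -0.13 on X and -0.16 on V, and placed III (0.11) above I (0.08). X was the most uniform chromosome, with an SD of 0.16, against 0.22 to 0.25 on the autosomes. Of its 1762 windows 10 (0.568%) were short-rich and 3 (0.170%) long-rich, against 204 (2.50%) and 59 (0.722%) of the 8168 autosomal windows. Chromosome III had the largest share of short-rich windows, 67 of 1371 (4.89%), and V the largest share of long-rich ones, 24 of 2051 (1.17%).

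On every autosome the arms were lower than the center. With each chromosome divided into 3 parts of equal length, both arms of the autosomes had a median of -0.09 and the center a median of 0.07 (interval 0.06 to 0.09). The difference from the center was -0.18 in the left and -0.17 in the right arm of I, -0.18 and -0.14 on II, -0.16 and -0.15 on III, -0.13 and -0.15 on IV and -0.15 and -0.17 on V. On X it was -0.03 and -0.02. The paired-end fragments gave differences from -0.16 to -0.09 on the autosomes and within 0.01 of 0 on X. The arms of the autosomes held fewer ends of both sizes, with medians of 2102 and 2128 short ends, against 2661 in the center, and of 1275 and 1271 nucleosome-length ends, against 1428. The center held 33.4% of the autosomal windows, 114 of the 204 autosomal short-rich windows (55.9%) and 2 of the 59 long-rich ones (3.39%). The right arm of V alone held 17 long-rich windows.

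**Figure D3:**
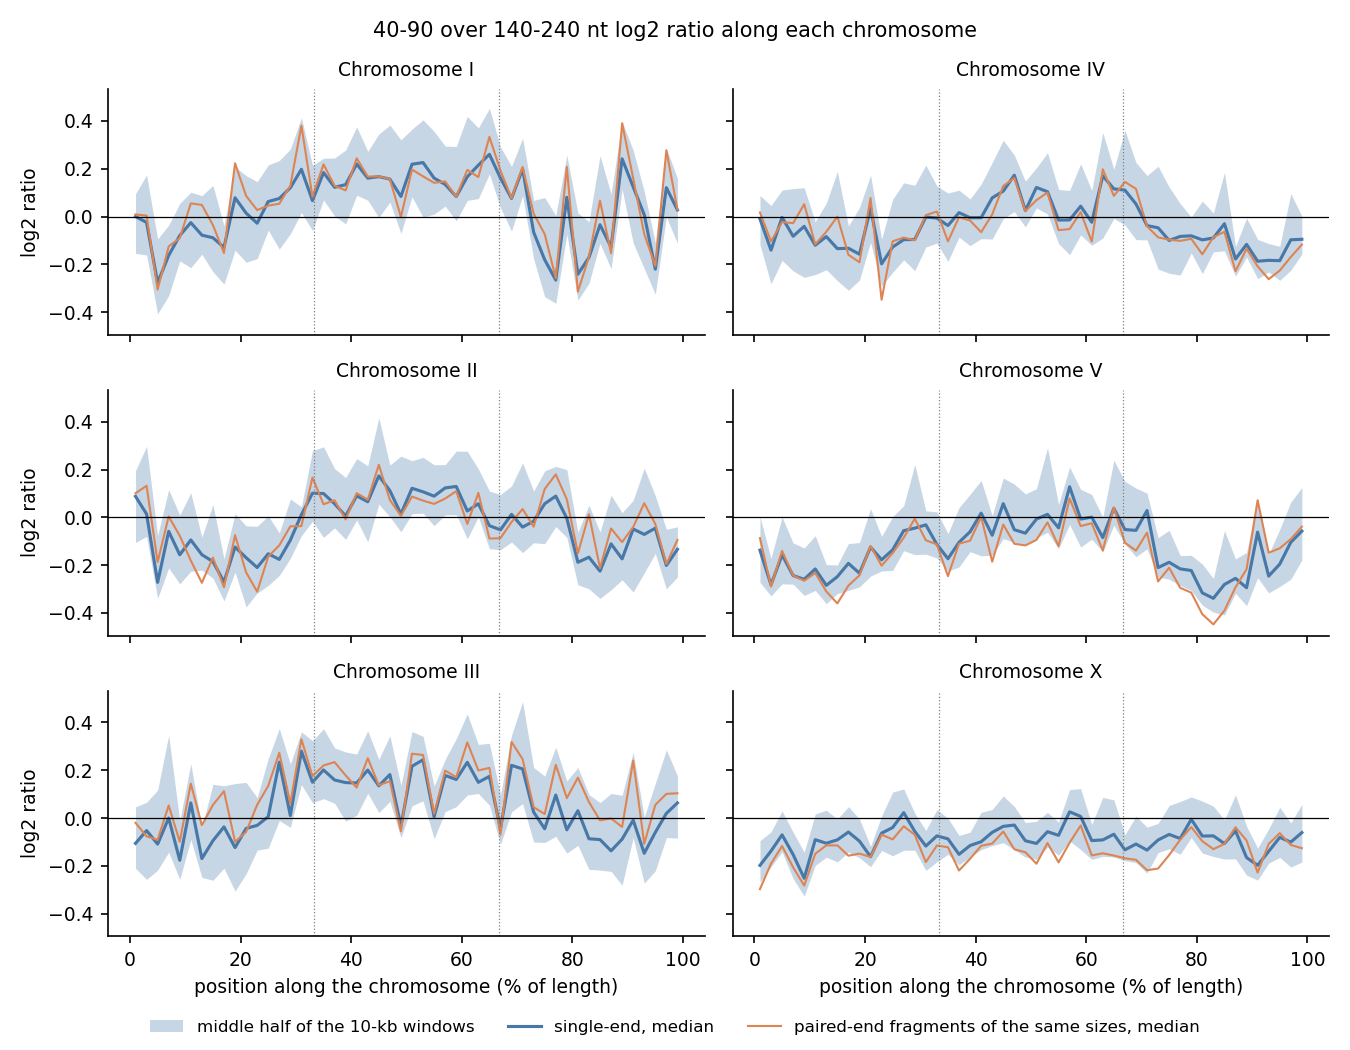
Log2 ratio of the 40 to 90 over the 140 to 240 nt library along the 6 chromosomes, each divided into 50 equal bins, with position as percent of the length on the x axis. Blue lines are the medians of the 10-kb windows in a bin, shaded bands their range from the 25th to the 75th percentile, orange lines the medians of the paired-end ratio, and dotted lines the borders between arms and center. The autosomes are lower on the arms than in the center, by 0.13 to 0.18, whereas X stays nearly flat.

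The same pattern was seen in blocks of 1 Mb. Of the 102 blocks with at least 20 passing windows, 30 had a median above 0 and 72 below 0. The lowest was block 18 of chromosome V (17000001 to 18000000), at -0.32, and the highest block 10 of chromosome I (9000001 to 10000000), at 0.23. All 18 blocks of X were below 0, between -0.17 and -0.04, as were 20 of the 21 blocks of V. Within a block the windows still varied, with a typical SD of 0.20 inside blocks and an SD of 0.11 among the medians of the blocks. The paired-end medians of the same blocks had a rho of 0.913 with these and the same sign in 93 of 102 blocks.

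Neighboring windows resembled each other. The correlation of the 10-kb ratio with itself (Pearson's r over pairs of windows on 1 chromosome) was 0.556 at a distance of 10 kb over 9869 pairs. It was 0.357 at 20 kb, 0.243 at 50 kb and 0.219 at 100 kb, and then fell little, to 0.180 at 1000 kb and 0.134 at 2000 kb. With the plus-strand ratio of a window set against the minus-strand ratio of its neighbor, which share no end, r at 10 kb was 0.528. After subtraction of the median of each arm or center r was 0.476 at 10 kb, 0.074 at 100 kb and 0.008 at 1000 kb. Most of the correlation at long distances was thus removed with the medians of the arms and centers. In windows of 1 kb r was 0.612 at 1 kb, 0.399 at 5 kb, 0.270 at 10 kb and 0.112 at 100 kb. The paired-end ratio had 0.506 at 10 kb and 0.173 at 100 kb in windows of 10 kb.

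Chromosome X had the lowest r at 10 kb and at 100 kb. Its r was 0.385 at 10 kb and 0.020 at 100 kb, against 0.503 to 0.571 and 0.104 to 0.218 on the autosomes. With these medians subtracted X had 0.379 at 10 kb, against 0.462 to 0.518 on the autosomes. X was also lowest at 20 kb, with 0.179, against 0.213 on III, and at 100 kb, with 0.010, against 0.026 on IV. It was not the lowest at 50 kb, with 0.055, against 0.028 on IV, nor at 200 kb, with 0.048, against 0.013 on IV. Unbroken runs of 10-kb windows on 1 side of 0 reached 260 kb above 0 (chromosome I from 5970001 to 6230000) and 490 kb below 0 (chromosome V from 2700001 to 3190000). Windows past the threshold were mostly alone. Of the 214 short-rich windows 140 stood singly and 74 lay in 36 runs, the longest of 30 kb, and of the 62 long-rich windows 52 stood singly.

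**Figure D4:**
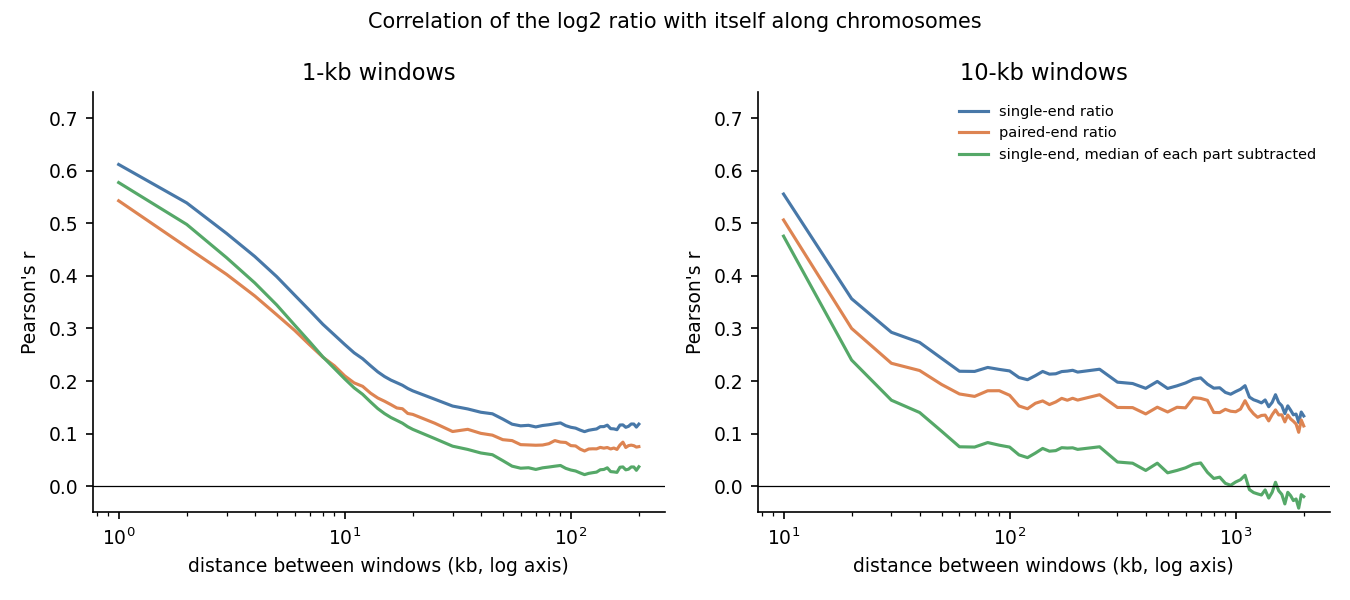
Pearson's r of the log2 ratio between windows a given distance apart on the same chromosome, for windows of 1 kb (left) and 10 kb (right), with distance on a log axis. Blue lines are the single-end ratio, orange lines the paired-end ratio and green lines the single-end ratio after subtraction of the median of each arm or center. In 10-kb windows the blue line goes from 0.556 at 10 kb to 0.219 at 100 kb and then levels off, and the green line reaches 0.008 at 1000 kb.

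At the scale of single nucleosomes, distances were taken from each end of the 140 to 240 nt library to the ends of the 40 to 90 nt library within 300 nt. A distance is positive downstream of the 5′ end of the nucleosome-length fragment, called inside, and negative upstream of it, called outside. The fragments are 140 to 240 nt long. Positive distances beyond a fragment's length therefore lie past its far end, though they are also listed as inside. The mean was 1624230 same-strand pairs per nt of distance, 1.08 times that of uniformly spread ends. Short and nucleosome-length fragments often began at the same base. At a distance of 0 there were 3068887 pairs, 1.89 times the mean. These are 23.5% of the positions of the 140 to 240 nt library (22.6 to 24.8% by chromosome), whereas the mean number of pairs at distances of 1 to 20 nt would give 12.6%. MNase ends had 1.01 times their mean at 0 and their maximum 4 nt outside.

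On both sides of 0 the number of pairs alternated at helical intervals. Crests lay 10, 21, 31, 41, 51, 62, 72, 82 and 93 nt inside the nucleosome-length fragment. As far as 294 nt downstream, past the far end of the fragment, there were 29 of them, 9 to 11 nt apart. Outside there were also 29, the last at 295 nt. The highest crest inside, at 21 nt, was at 1.24 times the mean, and the lowest trough, at 5 nt, at 0.822 times. The 10-nt share, the amplitude of a sinusoid of about 10 nt, fitted over a smooth baseline and divided by the mean, was 12.1% from 1 to 100 nt inside (10.5 on X to 13.5% by chromosome). Sinusoids with periods near 7 and near 14 nt gave at most 1.58% there. Within 100 nt outside, the share was 13.3% and that of the other periods at most 2.36%. In the next 100 nt it was 4.06% inside and 4.25% outside, and in the 100 nt after these 1.40% inside and 1.65% outside, each above the 0.179 to 0.912% at the other periods. The share of pairs from both libraries lay between those of pairs within each, 20.2% among short ends and 8.10% among nucleosome-length ends, with each position counted once. MNase ends around the same nucleosome-length ends had 3.04% from 1 to 100 nt, against 0.911% at the other periods.

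Short fragments began more often inside a nucleosome-length fragment than outside it, but by little. Same-strand pairs were 1.04% more numerous from 1 to 140 nt inside than from 1 to 140 nt outside (interval 1.02 to 1.06% from the number of pairs, which share ends). The excess was between 0.991 and 1.10% on each of the 12 strands of the 6 chromosomes. Pairs within 1 library and strand are symmetric by construction. The excess depended on the distance. In stretches of 20 nt it was 1.97% in the first, 3.56% in the second and highest, 4.65%, between 41 and 60 nt, followed by 2.42%. Between 81 and 100 nt it was 0.092%, and between 121 and 140 nt the excess was negative, -3.23%. A second positive excess of 3.08% lay near 210 nt. On every chromosome the 4 stretches up to 80 nt had more pairs inside and the 3 stretches between 100 and 160 nt fewer. Cut at 100 nt on both sides, the excess was 2.52%.

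The paired-end fragments of the same sizes had a larger excess, 3.24% within 140 nt (at least 2.80% on each chromosome and strand), with its maximum of 7.13% also between 41 and 60 nt. With single-end short ends around paired-end nucleosome-length ends it was 1.92%, and with paired-end short ends around single-end nucleosome-length ends 1.17%. As a background, 2 libraries of the same size class gave 0.201% (40 to 90 nt) and 0.103% (140 to 240 nt). Around single-end nucleosome-length ends, 90 to 140 nt ends had an excess of 1.75% and MNase ends one of 1.32%. The size of the excess thus depended on the libraries paired. Around nucleosome-length ends, the 40 to 90 nt and the 90 to 140 nt ends had fewer pairs outside than inside. So did MNase ends, whose 150 bp DNA lies within the 140 to 240 nt range, so the excess was not limited to pairings of unequal sizes.

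Short ends on the opposite strand were counted in the same way. Crests again came every 9 to 11 nt, at 5, 15, 25 and 35 nt outside and at 6, 16 and 26 nt inside. The highest was 25 nt outside, at 1.23 times the mean, and at 5 nt outside, where fragments pointing away from each other leave a gap of 4 nt, it was 1.22 times. Inside, crests again reached 1.20 times at 68 and 78 nt, where a short fragment read from its other end would begin at or near the nucleosome-length end. The 10-nt share was 14.4% from 1 to 100 nt inside and 11.7% from 1 to 100 nt outside. Between 121 and 140 nt the inside held 3.52% more pairs than the outside, and in the next 20 nt 3.47% more, about the length at which the far end of a nucleosome core would lie. Between 21 and 40 nt the excess inside was -1.89%. Over 140 nt the excess inside was 0.652% (0.251 to 0.919% by chromosome and strand). MNase ends on the opposite strand had their highest crest beyond 100 nt at 154 nt, 1.14 times the mean.

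**Figure D5:**
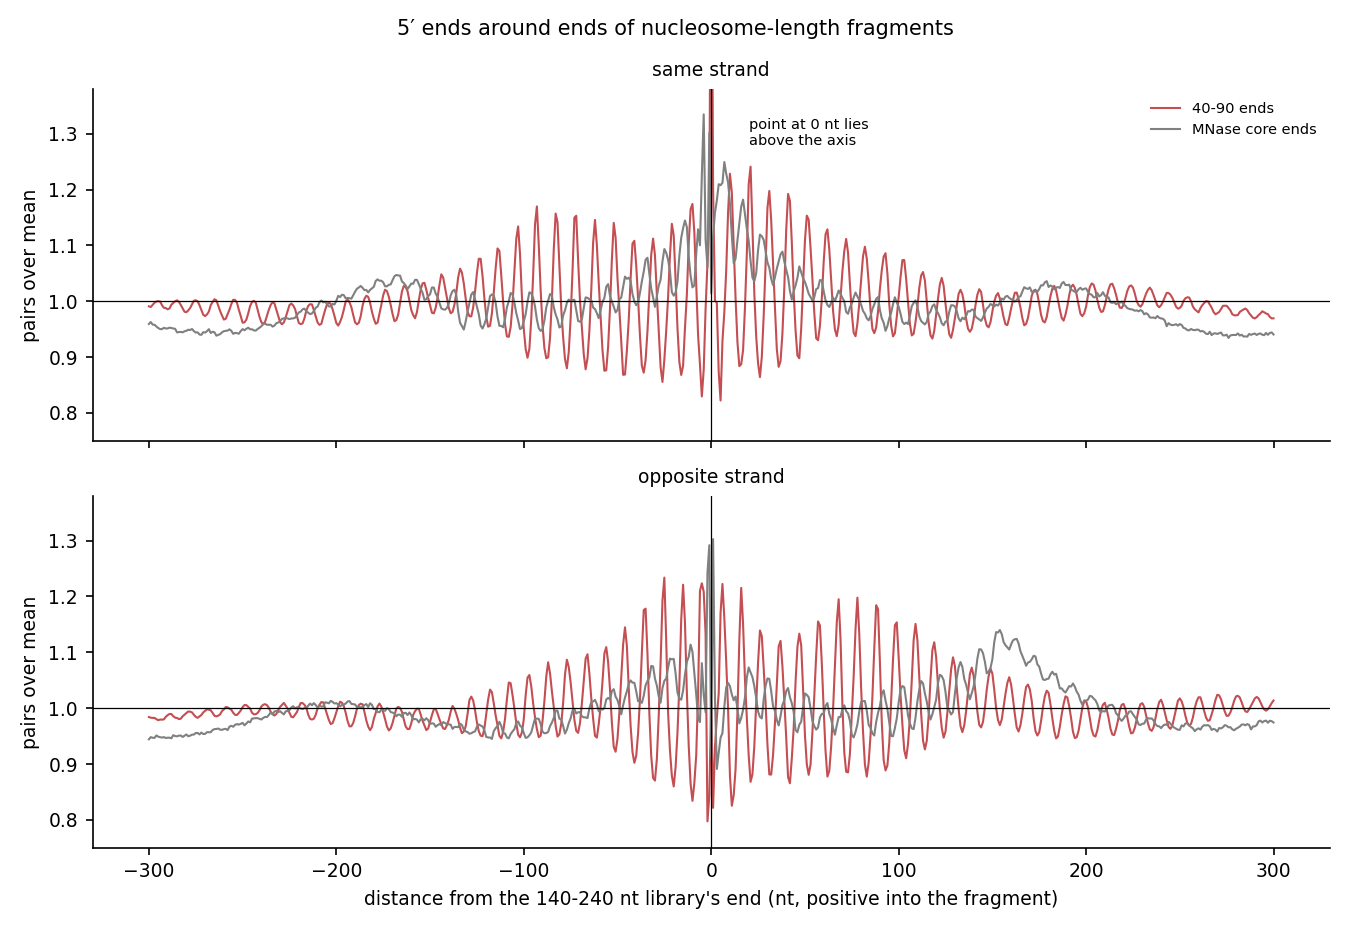
Number of 40 to 90 nt ends (red) and MNase core ends (grey) at each distance from an end of the 140 to 240 nt library, divided by its mean over 300 nt on either side, on the same strand (top) and on the opposite strand (bottom), positive into the nucleosome-length fragment. Red crests recur every 9 to 11 nt on both sides. The red point at 0 nt of the top panel is at 1.89 times the mean, outside the axis.

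Nucleosome-length ends in the 10% of 10-kb windows with the highest ratio, 0.31 or more, were compared with those in the 10% with the lowest, -0.29 or less. The 10-nt share within 100 nt inside was 14.003% in the highest windows (10.6 to 14.7% by chromosome) and 10.9% in the lowest (10.1 to 11.3%), with 12.0% in the windows between. In the next 100 nt it was 5.53% in the highest windows (4.16 to 5.93%) and 3.39% in the lowest (3.17 to 3.70%). The ranges by chromosome overlapped within 100 nt and not in the next 100 nt. The paired-end fragments gave 14.1% in the highest windows (10.8 to 14.8%) and 11.6% in the lowest (10.8 to 12.2%) within 100 nt. In the next 100 nt they gave 5.38% in the highest windows (3.76 to 5.70%) and 3.52% in the lowest (3.19 to 4.21%), and both pairs of ranges overlapped. The same-strand excess of pairs inside was 0.926% in the highest windows (0.837 to 1.02%) and 0.782% in the lowest (0.606 to 0.941%), with 1.08% between them. The opposite-strand excess had the other order, 0.507% in the highest windows (0.339 to 0.620%) and 0.905% in the lowest (0.713 to 1.22%), ranges that did not overlap. In the windows between them it was 0.638% (0.240 to 0.953%), a range that overlapped both. The windows were chosen on the ratio of the same libraries and differed in depth, with 200036 pairs per nt in the highest and 133132 in the lowest; the part of depth in the 10-nt share was not tested.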

How the data were processed

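Per the labels, DNA was size-selected, blunted, ligated to linkers, amplified and sequenced as 36-nt single-end or 25-nt paired-end reads; single-end lists hold 25 mapped nt. The submitters' processing notes name Bowtie 0.12.7; the genome build is not given in the sources used here. The authors deposited unnormalized lists with a whole-number count of tags per position and strand or per fragment (column 4, in which every value was found to be whole and positive). The track line of the shorter library gives a lower size limit of 30 nt, where its label gives 40 nt.

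Distinct 5′ ends on the 6 nuclear chromosomes were counted once per strand. Windows with a sum of both libraries under 0.2 times the median were left out. Counting error was taken from 1 over each count, intervals of medians from order statistics and of shares by the exact (Clopper-Pearson) method. Named windows are the 10 highest and lowest of 10 kb and the 3 highest and lowest of 1 kb. With 1 library per condition no test was run, and a fixed fold replaced it. Functions were tested on simulated ends. Members, thresholds and alternatives were chosen with earlier results of these data known. Alternatives counted every tag, changed scaling, filter, depth, strands or distances, or left out high windows. The other 2 paired-end libraries were not used. Sequence and gene context were not analysed here, for lack of a genome of the lists' build. The tools were Numba 0.67.0, SciPy 1.17.1, NumPy 2.4.6, pandas 2.3.3 and Matplotlib 3.10.9 under Python 3.11.15.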

Additional observations from a re-analysis of the deposited data

How the results depend on the processing

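Recomputation under the alternatives gave 82 values. Counts of windows and the 10-nt share cannot change sign, and none of the other values did. For 34 of the 82 values the shift exceeded 1.5 times (counts) or the counting interval (other values), and for 48 it did not. What caused the shifts was not tested. With every tag counted, the windows called were 1089 short-rich and 180 long-rich at 1 kb and 572 and 131 at 10 kb, and X minus autosomes was -0.093, against -0.064. Without the low-count filter 316 windows of 1 kb were short-rich and 336 long-rich. After random removal of short ends down to the number of nucleosome-length ends, 189 windows of 1 kb were long-rich. Corrected for saturation, 336 and 164 windows of 1 kb and 97 long-rich windows of 10 kb were called, and arms minus centers was -0.18, against -0.16. The plus strand alone gave 541 short-rich and 273 long-rich windows of 1 kb, and the minus strand 570 and 284. Scaled to the median window, 342 and 29 windows of 10 kb were called. At a threshold of 1, chosen after seeing the data, 0 windows of 10 kb were short-rich.

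The correlation at 10 kb was 0.531 on the plus and 0.528 on the minus strand, 0.476 with the medians of arms and centers subtracted and 0.528 across strands, the last pair added after seeing the data. The paired-end rho was 0.660 in 1-kb windows and 0.904 with all fragments. The ratio of pairs inside over outside, 1.010, was 1.025 within 100 nt, 1.015 with pairs weighted by tags, 1.009 in the highest and 1.008 in the lowest 10% of windows. The 10-nt share, 12.1%, was 10.1% from 21 to 120 nt, 10.5% on X, 14.3% weighted by tags, 14.003% in the highest and 10.9% in the lowest 10% of windows, these groups being added after seeing the data.

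Of 208 values of the 26 named windows, 193 stayed within their counting interval. None changed sign, which is no check, since these windows were picked for extreme ratios and every value reuses the same ends. Calls at 1 kb rest on few ends and depended most on the processing. With 1 library per condition the spread between preparations is unknown. No paired analysis was possible because each condition has 1 library.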
